A study of Mus musculus with 51 samples.

Results

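Adding a guide RNA for Ybx1 to one for Pparg was examined at day 4 of fat cell differentiation in the mouse mesenchymal line C3H/10T1/2-SAM, used as pre-adipocytes. The libraries were chosen by their labels: the 6 that received both guides (PY) and the 6 that received the Pparg guide alone (P), with each PY library paired with the P library of the same experiment. These are 12 of the 51 libraries of the series, and all genes were considered. Every group, controls included, carried dCas9-VP64, a catalytically dead Cas9 joined to an activator, and MS2-P65-HSF1, further activators that bind the guide RNA. A guide brings them to the promoter of a chosen endogenous gene. P cells received a plasmid with the Pparg guide, PY cells the Pparg and Ybx1 guide plasmids together, and the control cells (EV, 6 libraries at day 4) an empty plasmid. The plasmid total was 250 ng in each case, and how it was divided between the guides in PY is not given in the sources used here. All cells, EV included, received 5 µM rosiglitazone, a ligand of PPARG, at 48 h after transfection, which was day 0. The guides were brought in by transfection into 1 line, and the share of cells that took up plasmid was not analysed here.

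YBX1 is a cold shock domain protein that binds RNA and DNA, affects the translation and decay of messenger RNA, and is named for the Y box, an inverted CCAAT box of promoters. PPARG, a nuclear receptor, is the central regulator of fat cell formation and switches on genes of lipid uptake, storage and oxidation. Brown and beige fat cells burn fuel for heat in mitochondria, which are cleared by mitophagy when damaged.

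Total counts of the 12 libraries ran from 6969243 (PY of experiment 2) to 26841678 (PY of experiment 5), and replicate and experiment numbers are the same here. Where a pair of levels is set side by side with "against", PY comes first. The 10 highest genes of a library took 6.22% to 25.5% of its counts, with the 4 highest shares in experiments 2 and 3. Mesenchymal markers were present in all 12 libraries, with Pdgfrb at 310.1 to 472 CPM and Vim at 1961 to 7452 CPM, which are counts scaled to a common effective library size. The summed level of fat cell identity genes was 2745 to 28637 CPM in PY, 5498 to 25259.9 CPM in P and 651 to 2045 CPM in EV. Of 10 defining markers of other cells, 8 had at most 9 counts in any of the 12 libraries, namely Myod1 and Myog (muscle), Sp7 (bone), Acan (cartilage), Ptprc (blood cells), Adgre1 (macrophages), Cdh5 (endothelium) and Epcam (epithelium). Cdh1 (epithelium) and Pecam1 (endothelium) were present in all 12, at 0.503 to 3.31 CPM and 0.126 to 0.821 CPM. Longer marker lists were not all scarce. Cartilage and bone genes summed to 168 to 609 CPM in PY and 156 to 574 CPM in P. Endothelial genes summed to 10.9 to 48.7 CPM in PY and 21.1 to 48.6 CPM in P. Skeletal muscle genes summed to 4.35 to 61.0 CPM in PY and 4.56 to 41.3 CPM in P. Macrophage genes summed to 7.02 to 16.7 CPM in PY and 8.21 to 14.1 CPM in P.

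Ybx1 was the gene the added guide addressed, so its RNA checks the labels. The gene lies on the minus strand of chr4:119277981-119294604 (GRCm38). The bases just upstream of its GENCODE start are shown because activation was directed to this gene's promoter. They were searched for CCAAT in both orientations, since Y-box proteins are named for the inverted CCAAT box. The stretch is 159 bases of the minus strand, chr4:119294605-119294763, from RefSeq (GRCm38.p6), with CCAAT in capitals.
Ybx1: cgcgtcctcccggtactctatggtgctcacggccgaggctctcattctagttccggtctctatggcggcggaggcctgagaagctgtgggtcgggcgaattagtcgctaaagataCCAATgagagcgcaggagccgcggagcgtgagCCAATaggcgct
CCAAT occurs at 2 places and its reverse complement ATTGG, the inverted box, at 0. Of 32851 mouse promoters, 21.3% held either in a window of this length and place and 3.96% held at least as many. A match is a description of the letters, not a bound site.

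Ybx1 RNA stood at 2428, 1364, 2146, 1645, 2072 and 1583 CPM in PY of experiments 1 to 6 and at 664, 461, 610.2, 566, 628 and 543 CPM in P, in the same order. Every PY library was above every P library, and experiment 2 had the lowest value of both groups. The ratio of PY to P within an experiment ran from 2.91-fold to 3.65-fold. Ybx1 rose 3.20-fold (log2 1.68 ± 0.09 (SE), 95% interval 2.80 to 3.65, edgeR adjusted p = 2.37e-14), from 579 ± 72.1 to 1873 ± 404 CPM (SD, n = 6 each). It passed under each of 34 other settings and subsets of libraries. P lay at the level of EV, 578 ± 105 CPM (log2 0.01, adjusted p = 0.946), in a comparison that shares the P libraries. The difference between PY and P was 3.12-fold on day 0 and 2.94-fold on day 2, and its change from day 0 to day 4 was log2 0.04 ± 0.13.

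Pparg was at 219, 211, 287, 178, 412 and 282 CPM in PY and at 210.4, 207, 236, 206, 370.3 and 202 CPM in P, against 41.8 to 76.6 CPM in EV. PY was above P in 5 of 6 experiments, the groups overlapped, and the difference did not pass (log2 0.14 ± 0.20, adjusted p = 0.951, 95% interval of the fold 0.826 to 1.47).

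Over all genes, 5 of 17015 passed and all 5 were higher in PY, which is 0.0294% of the genes tested. They were Ybx1, the processed pseudogenes Ybx1-ps2 and Gm11560, Nlrp2 and Cyp4a14. In edgeR with the count filter 0 genes passed as lower in PY, while 829 genes (4.87%) had an unadjusted p under 0.05 in either direction. DESeq2 and limma voom also gave 0 lower, but edgeR with no filter passed 131 genes, 40 of them lower. PY exceeded P in all 6 experiments for 394 genes (2.32%) and fell short in all 6 for 369 (2.17%). With CPM by raw library totals, 251 genes were higher in all 6 and 344 lower. The groups did not overlap for 3 genes with PY higher (0.0176%), namely Ybx1 and both pseudogenes, and for 1 with PY lower (0.00588%), the scarce Gm48646, named after its values were seen.

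**Figure D1:**
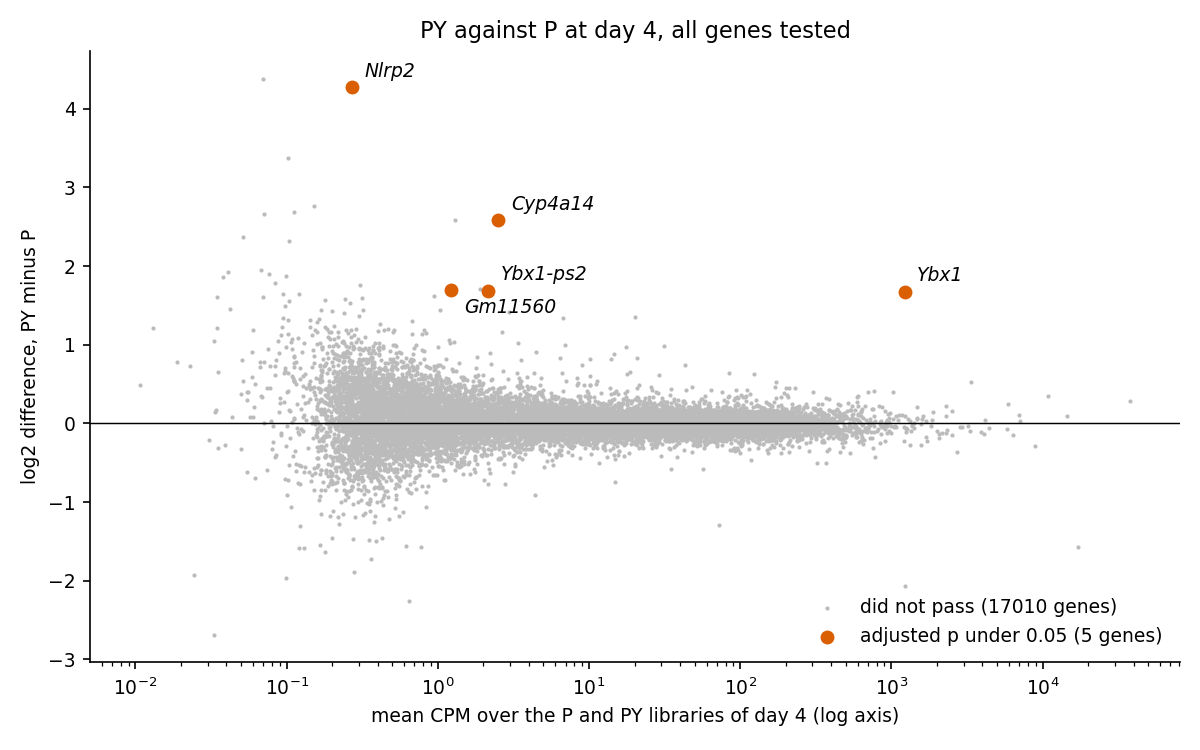
Log2 difference between PY and P at day 4 (vertical axis) against mean CPM over the 12 libraries (horizontal, log axis) for the 17015 genes tested. The 5 genes that passed are named and lie above 0, with Ybx1 the abundant one among them (log2 1.68).

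Both pseudogenes that rose resemble Ybx1 transcripts. Ybx1-ps2 (chr6:37686239-37687195) is 92.5% identical over 978 bases and Gm11560 (chr11:99932162-99933109) 96.1% over 932 bases, each with an identical run of 149 bases. The treatment of multi-mapping reads is not given in the sources used here, so both values are uncertain. Ybx1-ps2 was at 3.74, 3.45, 4.24, 2.73, 2.57 and 3.11 CPM in PY and at 1.09, 0.950, 0.966, 1.21, 0.967 and 0.849 CPM in P. Gm11560 was at 2.49, 1.48, 1.31, 1.59, 2.23 and 2.12 CPM in PY and at 0.726, 0.615, 0.207, 0.546, 0.714 and 0.687 CPM in P. Neither gene's groups overlapped, and both rose: Ybx1-ps2 by log2 1.69 ± 0.19 (95% interval of the fold 2.46 to 4.23, adjusted p = 2.94e-06) and Gm11560 by log2 1.69 ± 0.22 (2.36 to 4.42, adjusted p = 4.96e-05). In fits of the 12 libraries alone with 1 experiment left out, Ybx1-ps2 did not pass without experiments 2, 3 or 6 and Gm11560 passed only with experiment 4 left out. With no replicate block in the 12 libraries Gm11560 had an adjusted p of 0.240. Of 8 processed copies found by similarity (at least 80% over at least 300 bases), 3 could be tested, and the third, E130201H02Rik, did not pass (log2 0.75, adjusted p = 0.928).

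The genes around Ybx1 were examined because the activators are brought to its promoter. Of 47 annotated genes that start within 500 kb of the Ybx1 start, 14 were tested and 0 passed. Ppih, a peptidyl-prolyl isomerase of the spliceosome that starts 25.9 kb away, was at 7.52 ± 1.56 against 8.05 ± 2.49 CPM (log2 -0.08 ± 0.11, 95% interval of the fold 0.807 to 1.11). Ppcs, an enzyme of coenzyme A synthesis 128 kb away, was at 27.7, 37.1, 33.9, 21.3, 28 and 17.8 CPM in PY and at 19, 30.3, 24.4, 18.4, 24.4 and 16.6 CPM in P. It was higher in PY in 6 of 6 experiments, but the groups overlapped and it did not pass (log2 0.30 ± 0.13, adjusted p = 0.928). Ppcs was at 12.6 ± 0.617 CPM in EV, and P, without the Ybx1 guide, was above EV (log2 0.77 ± 0.13, edgeR adjusted p = 4.12e-05). Svbp, a partner of the vasohibins, was lower in PY in 5 of 6 experiments (log2 -0.21 ± 0.10, adjusted p = 0.928).

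**Figure D2:**
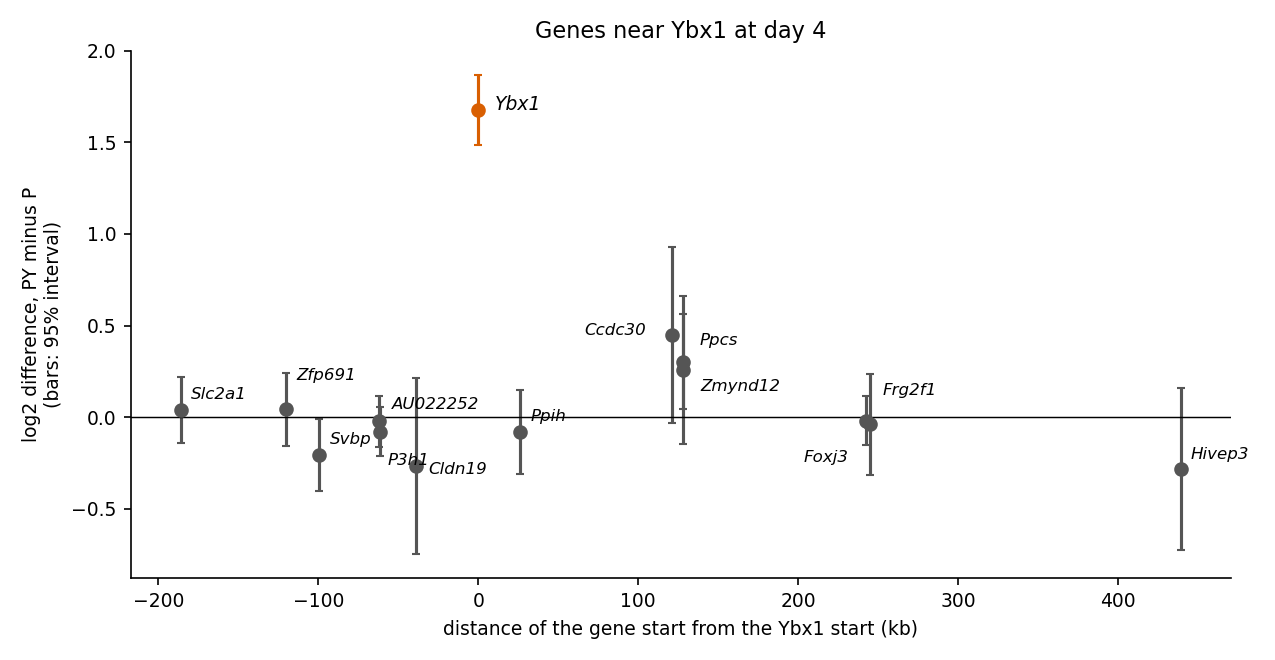
Log2 difference between PY and P at day 4 (vertical axis, bars are 95% intervals) for Ybx1 and the 13 tested genes of at least 1 CPM that start within 500 kb, by distance from the Ybx1 start in kb. Ybx1 lies at 1.68, and the others lie between -0.28 (Hivep3) and 0.45 (Ccdc30) and did not pass.

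Nlrp2, a receptor of the NOD-like family, had the largest fitted difference of the 5 genes and was scarce. Its promoter is shown because, besides Ybx1, it is the only protein-coding gene of the 5 that also passed on days 0 and 2. The stretch is 250 bases of the minus strand, chr7:5351036-5351285, from RefSeq (GRCm38.p6), next to the gene at chr7:5298547-5351035, with CCAAT in capitals.
Nlrp2: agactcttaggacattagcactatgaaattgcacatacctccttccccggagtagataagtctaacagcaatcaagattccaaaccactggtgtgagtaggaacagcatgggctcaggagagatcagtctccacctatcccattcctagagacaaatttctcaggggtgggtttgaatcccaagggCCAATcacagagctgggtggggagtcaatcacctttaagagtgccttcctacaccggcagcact
It holds CCAAT at 1 place and ATTGG at 0, and 33.8% of promoters held either in a window of this length and place. Raw counts of Nlrp2 were 7, 0, 2, 59, 8 and 6 in PY of experiments 1 to 6 and 0, 0, 0, 1, 1 and 1 in P. PY was higher in 5 of 6 experiments and tied at 0 in experiment 2, the groups overlapped, and experiment 4 gave 59 of the 82 PY counts. The pooled ratio was 26.3 (95% interval 8.67 to 130, counting error only), and 11.1 (2.74 to 97.0) without experiment 4. Nlrp2 rose by a fitted log2 of 4.28 ± 0.63 (edgeR adjusted p = 4.61e-04), a size that depends on the prior count of the model. It did not pass without PY replicate 4 (adjusted p = 0.170), without P replicate 4 (adjusted p = 0.496), without both (adjusted p = 0.484), with a block shared by days (adjusted p = 0.0574) or with no replicate block (adjusted p = 0.359), and it was below the count filter in fits of the day 4 libraries alone. PY libraries of the earlier days were at 4.16 ± 4.51 CPM on day 0 (n = 6) and 0.501 ± 0.310 on day 2 (n = 5), and day 4 was at 0.519 ± 0.822 CPM (n = 6). Of 13 tested NOD-like receptor and inflammasome genes, Nlrp2 rose, 0 fell and the median was log2 -0.00202.

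Cyp4a14, a fatty acid omega-hydroxylase whose gene responds to PPAR receptors, lies on the same chromosome as Ybx1, 3.8 Mb away (chr4:115486200-115496142). It stood at 2.09, 8.05, 6.44, 0.111, 7.18 and 2.07 CPM in PY of experiments 1 to 6 and at 0.302, 2.07, 0.690, 0.273, 0.799 and 0.121 CPM in P. PY was higher in 5 of 6 experiments, by 3.89-fold to 17.1-fold, and lower in experiment 4, so the groups overlapped. EV was at 0 to 0.102 CPM. Cyp4a14 rose 5.98-fold (log2 2.58 ± 0.39, 95% interval 3.42 to 10.5, edgeR adjusted p = 0.00505). It did not pass in DESeq2 (adjusted p = 0.815), with no replicate block (adjusted p = 1.0), in the 12 libraries alone (adjusted p = 0.0791), without replicate 3 or 5 of either group (adjusted p of 0.0652 to 0.0943), or without the pair of experiment 3, 5 or 6 (adjusted p of 0.0611 to 0.109). In fits of the 12 libraries with 1 experiment left out it passed only without experiment 4, and the adjusted p was 0.159 to 0.765 without the others. Day 0 PY libraries had none, and on day 2 PY was at 1.89 ± 1.77 CPM (n = 5) and P at 0.280 ± 0.190 (n = 6), a difference that did not pass (adjusted p = 0.202).

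**Figure D3:**
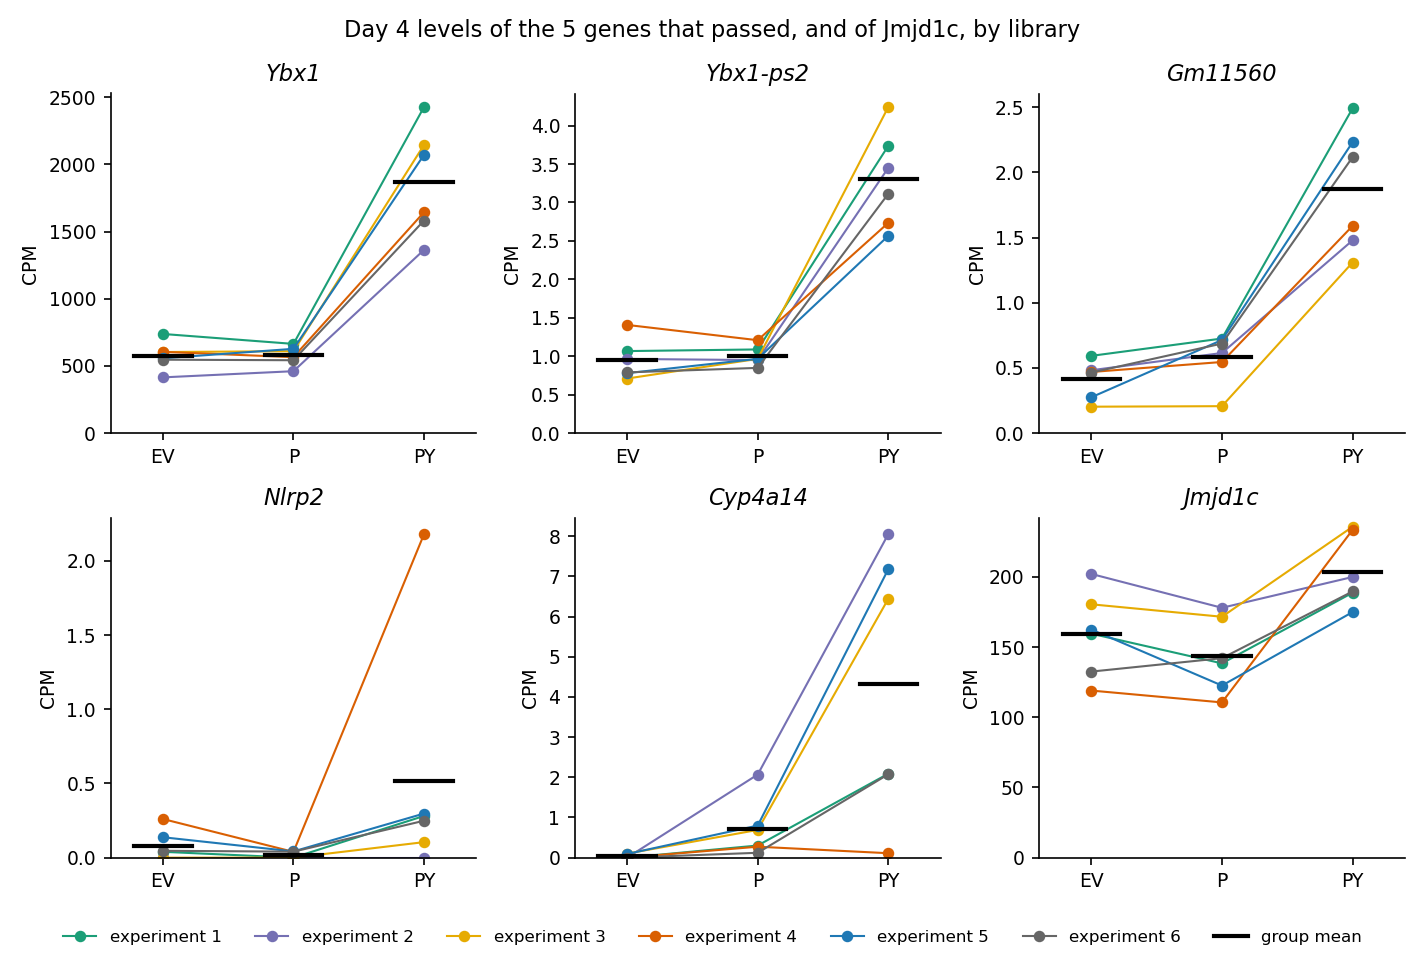
CPM of the 5 genes that passed and of Jmjd1c in each day 4 library (vertical axis) for EV, P and PY, with a coloured line for each experiment and black bars for group means. Ybx1 and both pseudogenes are higher in PY in every experiment, Nlrp2 is highest in PY of experiment 4 (2.18 CPM), and Cyp4a14 is lower in PY only in experiment 4.

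Jmjd1c, of the JmjC family of histone demethylases, is described because it passed on both earlier days. It was at 189, 199.9, 236, 233, 175 and 189.6 CPM in PY and at 138, 178, 172, 111, 123 and 142 CPM in P. PY was higher in 6 of 6 experiments, by 1.12-fold to 2.11-fold, but the ranges overlapped and it did not pass (log2 0.52 ± 0.12, adjusted p = 0.219). With no filter on low counts it passed (adjusted p = 2.16e-07). The fold had been 2.70 on day 0 (adjusted p = 5.63e-09) and 1.60 on day 2 (adjusted p = 0.0178). The change of its log2 difference from day 0 to day 4 was -0.91 ± 0.17, which did not pass in edgeR (adjusted p = 0.145), while DESeq2 gave adjusted p = 0.00992, its single call. In edgeR with the count filter 0 genes passed for a change from day 0 to day 4 (566 at an unadjusted p under 0.05, 3.33%) or from day 2 to day 4 (568, 3.34%), and with no filter 65 and 31 passed. On the earlier days 21 genes (0.123%, day 0) and 6 (0.0353%, day 2) had passed, all higher in PY. None of the 19 demethylase genes passed on day 4 (median log2 0.03).

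Among genes that went one way in all 6 experiments without passing, the 6 of smallest p on each side were taken. Those higher in PY were Fbxo33, Jmjd1c, Bpifa6, Cep95, Serpinb9e and Zfp189. Fbxo33, an F-box protein of ubiquitin ligases, was at 29.9, 30.9, 32.3, 30.9, 25.2 and 18.1 CPM in PY and at 26.7, 23.1, 21.9, 23.7, 21.1 and 15.7 CPM in P. Its groups overlapped and it did not pass in edgeR (log2 0.33 ± 0.07, adjusted p = 0.183), but it did in DESeq2 (adjusted p = 0.0296), and it had passed in edgeR on day 2 (adjusted p = 0.0145). Serpinb9e, a serine protease inhibitor, was at 12.2 CPM in PY of experiment 4 and at 0.241 to 2.96 CPM in the other PY libraries (log2 1.71 ± 0.47, adjusted p = 0.732). The 6 lower in PY were Lgals9, Lgals3bp, Ly6e, Ms4a4d, B2m and Oas2. B2m, the light chain of class I MHC, was at 2187, 2768, 3262, 1989.6, 2447 and 1646 CPM in PY and at 3041, 3100.4, 4475, 2773, 2591 and 2399 CPM in P. Its groups overlapped and it did not pass (log2 -0.37 ± 0.11, adjusted p = 0.770). Lgals9, galectin-9, was at 169.9 ± 34.9 against 212 ± 57.8 CPM (log2 -0.31 ± 0.08, adjusted p = 0.321).

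No gene of the fat cell identity list passed, and experiment 4 differed from the others in this list. Of 27 fat cell identity genes tested, 0 passed and 25 had a positive log2 difference, with a median of 0.21, against 53.3% positive and a median of 0.01 over all genes. The median log2 ratio within experiments 1 to 6 was 0.78, 0.09, 0.32, -1.42, 0.12 and 0.90, so 5 experiments lay above 0 and experiment 4 below it. All 27 genes were lower in PY in experiment 4, where 52.2% of all genes were, and 17 of 27 were higher in PY in each of the other 5, where 6.28% of all genes were. Experiment 4 was singled out after its values were seen. In bulk RNA, fewer fat cells and less fat cell RNA per cell cannot be told apart.

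In experiment 4 the ratio of PY to P was 2.91 for Ybx1 and 0.867 for Pparg. The PY library of that experiment also had the most Krt8, a keratin of simple epithelia, at 11.9 CPM against 0 to 1.04 CPM in the other PY libraries (log2 2.58 ± 0.66, adjusted p = 0.537). Experiment 4 held the highest Krt8 value of P and of EV as well, at 1.17 and 0.626 CPM. Krt8 had passed on day 0 (5.64-fold higher in PY, adjusted p = 0.0279). The 11 epithelial markers summed to 1.73 to 20.1 CPM in PY and 1.12 to 6.67 CPM in P. Of 6 tested 0 passed and 5 were positive, with a median fitted difference of log2 0.77. The median log2 ratios within experiments 1 to 6, of CPM with 0.5 added, were 0.31, 0.16, 0, 0.85, 0.01 and 0.10. Of the defining markers Epcam was at 0 in 11 of 12 libraries and Cdh1 was present in all 12. Their part in the fat cell values was not tested.

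Fabp4, a fatty acid carrier, was at 3774, 6441, 5214, 1018, 4193 and 3268 CPM in PY and at 1977, 4885, 3048, 1490.3, 3403 and 1479 CPM in P. It was higher in PY in every experiment but the fourth, and the groups overlapped (log2 0.53 ± 0.41, adjusted p = 0.928, 95% interval of the fold 0.808 to 2.57). Adipoq, the hormone adiponectin, was at 658, 1280.5, 762, 78.3, 1833 and 1200.0 CPM in PY and at 431, 1413, 721, 383, 1862 and 688 CPM in P. PY was higher in 3 of 6 experiments (log2 -0.13 ± 0.42, adjusted p = 0.990), and the widest ratio was in experiment 4. Plin1, a lipid droplet coat protein, was at 40.9 CPM (PY) and 178 CPM (P) in experiment 4, and PY was higher in the other 5 (log2 0.09 ± 0.37, adjusted p = 0.993). Cebpa, a transcription factor of fat cell formation, was at 86.6, 77, 54, 5.80, 84.8 and 63.2 CPM in PY and at 42.2, 65.1, 51.2, 25.6, 96.5 and 48.7 CPM in P. Its lowest value was again PY of experiment 4, just below the EV range of 5.84 to 11.9 CPM, and the groups overlapped (log2 0.03 ± 0.26, adjusted p = 0.999). For scale, P differed from EV by log2 5.76 for Fabp4 and 6.35 for Adipoq, and 4121 genes passed there (24.2%).

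**Figure D4:**
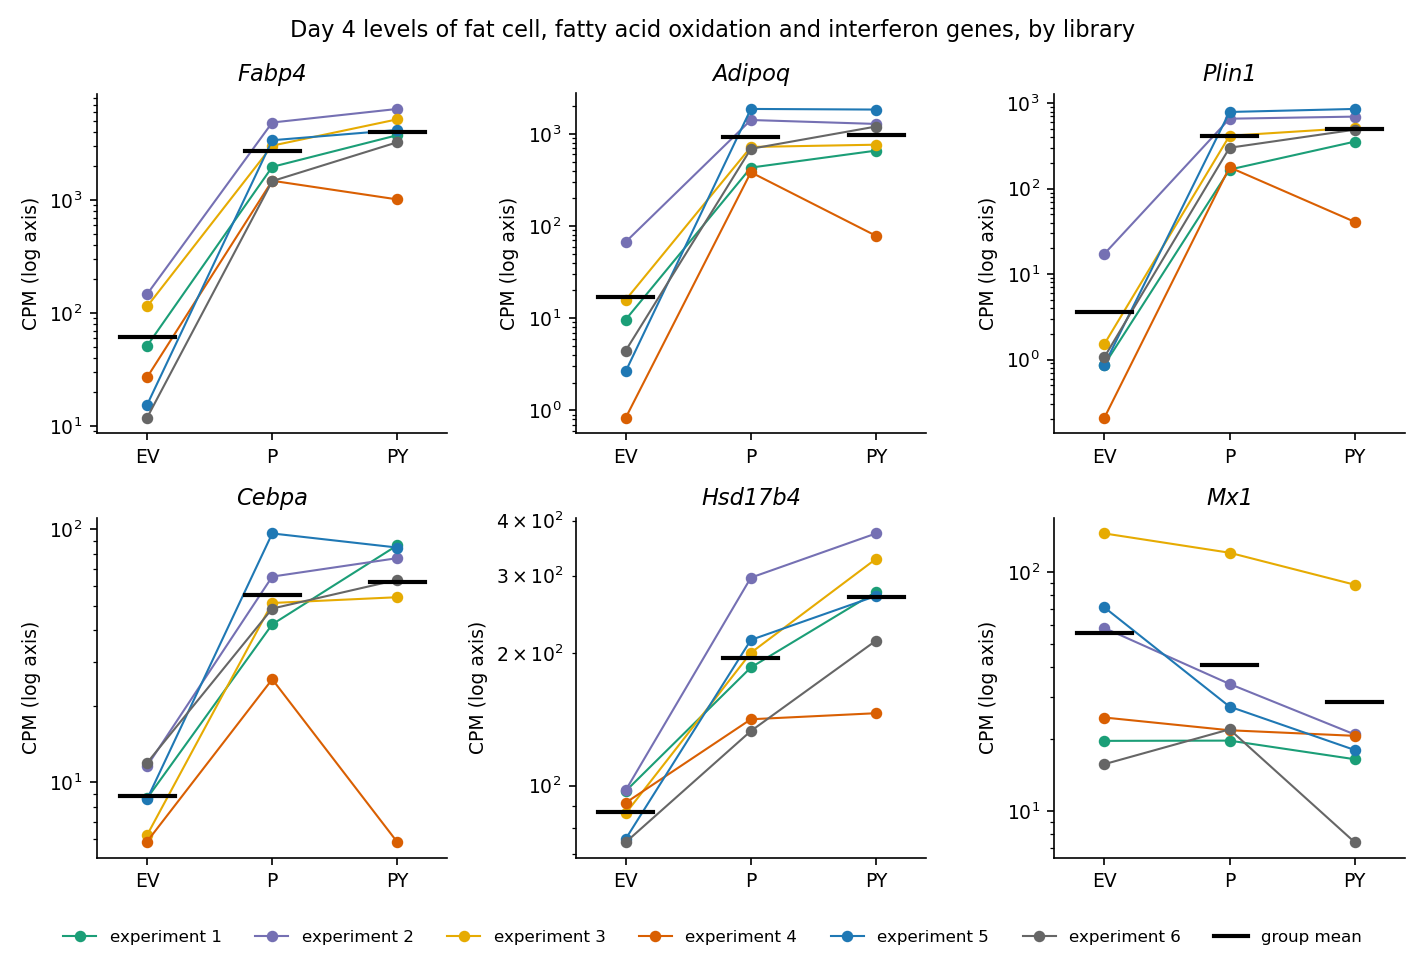
CPM of fat cell, fatty acid oxidation and interferon-induced genes in each day 4 library (vertical log axis), joined by experiment, with black bars for group means. In experiment 4 the fat cell genes are lower in PY than in P, with Adipoq at 383 and 78.3 CPM.

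Genes of fatty acid oxidation, which break down fatty acids in mitochondria and peroxisomes, had positive differences that did not pass. Of 26 tested 0 passed and 26 were positive, with a median of log2 0.19. The medians within experiments were 0.34, 0.17, 0.32, -0.34, 0.12 and 0.53. In each experiment but the fourth, set apart after its values were seen, 19 of 26 were higher in PY (6.28% of all genes were). Hsd17b4, a peroxisomal enzyme of beta-oxidation, was at 275, 374, 327, 146, 269.7 and 214 CPM in PY and at 186, 297, 200.4, 142, 214 and 133 CPM in P. It was the 1 member higher in all 6 experiments, with ranges that overlapped (log2 0.45 ± 0.14, adjusted p = 0.904). On day 0 Hsd17b4 had passed (1.90-fold higher in PY, adjusted p = 0.00383), and the change of its log2 difference to day 4 did not pass (-0.47 ± 0.21, adjusted p = 1.0). Hadha, of the mitochondrial trifunctional protein, was at 569 ± 226 against 467 ± 153 CPM and was higher in PY in 5 of 6 experiments.

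Of 44 nuclear genes of oxidative phosphorylation tested 0 passed and 42 were positive, with a median of log2 0.09. In experiment 4, 43 were lower in PY (52.2% of all genes were). Cycs, cytochrome c, was at 122 ± 70.3 against 94.8 ± 50.6 CPM (log2 0.35 ± 0.21, adjusted p = 0.928). Fatty acid and triglyceride synthesis (20 tested, 0 passed) had a median of 0.09, and -0.52 in experiment 4. Cholesterol synthesis and uptake (23 tested, 0 passed) had a median of 0.04.

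Brown and beige thermogenic genes did not pass. Of 26 listed 21 were tested and 14 of these were positive, with a median of log2 0.15. In experiment 4 the median was -0.37 and 19 of 21 were lower in PY (52.2% of all genes were). Cox8b was higher in PY in 3 of 6 experiments (log2 -0.11 ± 0.34) and Prdm16 in 4 of 6 (log2 0.09 ± 0.34). Cidea, which coats lipid droplets in brown fat cells, was at 0.121, 1.15, 0.576, 0.0739, 0.558 and 0.539 CPM in PY and at 0, 0.224, 0.0690, 0.156, 0.630 and 0.243 CPM in P. PY was higher in 4 of 6 experiments and the groups overlapped (log2 0.89 ± 0.54, adjusted p = 0.928). Ucp1, the uncoupling protein, had at most 2 counts in a PY library and 0 in every P library, too few to detect a difference. Ppargc1a, a coactivator of mitochondrial genes, was at 2.81, 35.5, 27.6, 0.776, 0.558 and 0.249 CPM in PY and at 2.06, 38.1, 29.3, 1.36, 0.336 and 0.364 CPM in P. Experiments 2 and 3 were the high ones in both groups (log2 -0.05 ± 0.27, adjusted p = 0.997). Ebf2, an early transcription factor of brown fat, and Pdk4, a kinase that limits glucose oxidation, were higher in PY in 6 of 6 experiments (log2 0.45 ± 0.18 and 0.47 ± 0.29) and did not pass (adjusted p = 0.928 each). Of the 21 tested, 2 were higher and 1 lower in PY in all 6 experiments, against 2.32% and 2.17% of all genes.

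Mitophagy and autophagy genes lay near all genes. Of 28 tested 0 passed and 14 were positive, with a median of log2 0.01. Pink1, a kinase that marks damaged mitochondria, was at 72, 74.3, 58.7, 42.4, 110.0 and 101 CPM in PY and at 57.9, 80.4, 60.1, 62.5, 104 and 94.2 CPM in P. PY was higher in 3 of 6 experiments, and the 95% interval of the fold was 0.841 to 1.14. Gabarapl2, a protein of autophagosome membranes, was higher in PY in 6 of 6 experiments (log2 0.31 ± 0.11, adjusted p = 0.928) and Lamp2, of the lysosome membrane, lower in 5 of 6 (log2 -0.21 ± 0.07, adjusted p = 0.928).

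**Figure D5:**
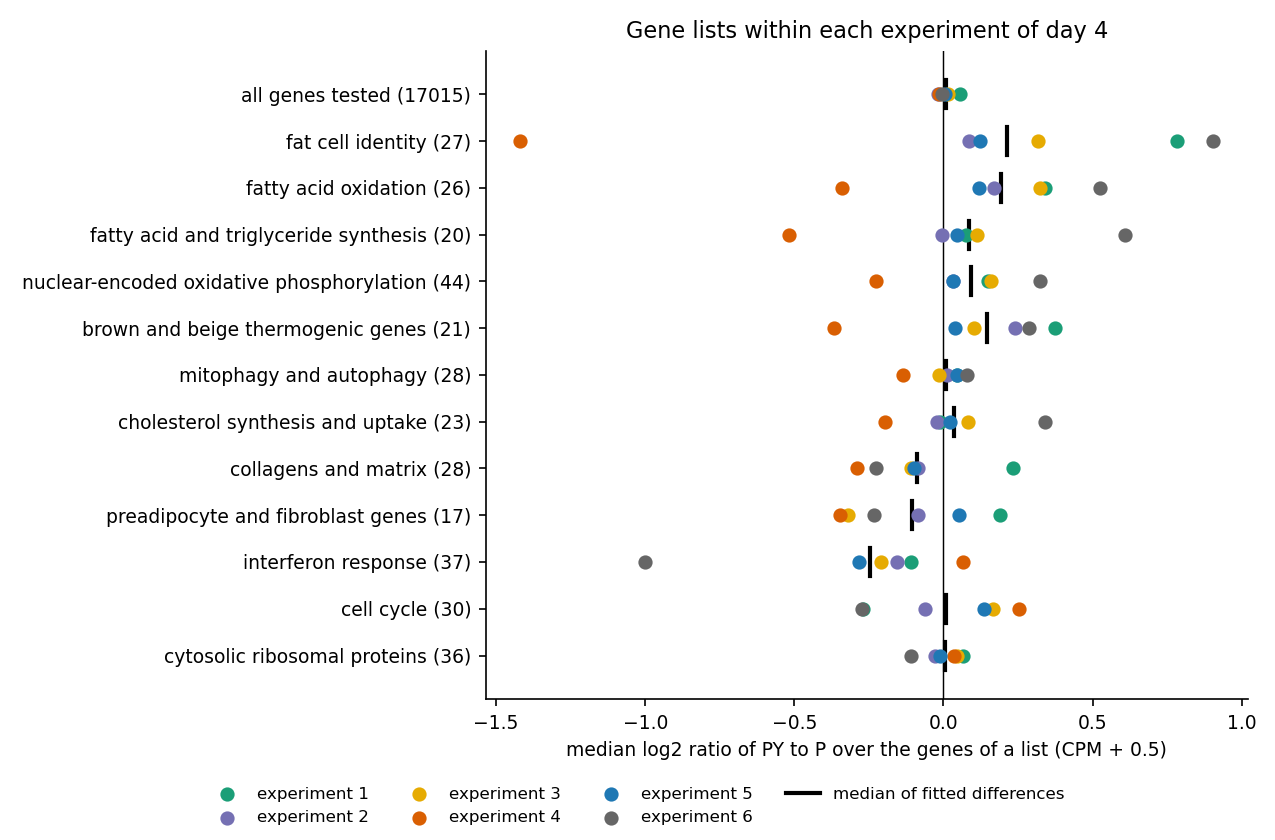
Median log2 ratio of PY to P (horizontal axis) over the genes of each list within each of the 6 experiments (coloured points), with a black bar for the median of the fitted differences and the number of genes tested in brackets. Experiment 4 lies at -1.42 for fat cell identity, and experiment 6 at -1.0 for interferon response.

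A paired fit of the 12 libraries alone was repeated with each experiment left out, a choice made after seeing the data. With all 12 libraries 4 genes passed, among them Ybx1 and both pseudogenes but not Cyp4a14 or Nlrp2. The numbers were 2, 1, 1, 22, 4 and 1 without experiments 1 to 6 in turn. Without experiment 4, 22 of 14804 genes passed (0.149%), 21 higher and 1 lower in PY. Besides Ybx1, Cyp4a14 and both pseudogenes they were Jmjd1c (log2 0.39 ± 0.06, adjusted p = 0.0248), Ces1d, Ces1f, Gk, Hsd17b4, Hadhb, Fabp4, Gpd1, Sptlc3, Cyp4b1, Ucp2, Arxes2, Parm1, Tmcc3, Pcyox1, Phospho1, A430078G23Rik and Ly6a. The experiment left out is the one in which all 27 fat cell identity genes were lower in PY, and the genes given with values were chosen after these were seen. Ces1d and Ces1f, carboxylesterases that hydrolyse lipid esters, had log2 differences of 1.32 ± 0.15 and 1.57 ± 0.23 (adjusted p = 0.00608 and 0.0248). Gk, glycerol kinase, had 0.81 ± 0.11 (adjusted p = 0.0120), Hsd17b4 0.52 ± 0.07 (adjusted p = 0.0120) and Fabp4 0.70 ± 0.12 (adjusted p = 0.0498). Ly6a, the surface antigen Sca-1, was the gene that fell (log2 -0.53 ± 0.08, adjusted p = 0.0248). In the edgeR fit of all 51 libraries with the count filter, none of these passed apart from Ybx1, Cyp4a14 and the pseudogenes. That fit was also run without the day 4 P and PY libraries of experiment 4. It then passed 5 genes, 0 of them lower in PY, so the number of 22 belongs to the fit of 10 libraries. The cause of this gap was not tested.

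Ces1d was at 14.7, 39.1, 12.2, 0.961, 33.5 and 48.3 CPM in PY and at 6.90, 19.2, 5.04, 3.82, 16.9 and 10.8 CPM in P. PY was higher in 5 of 6 experiments, and with all 51 libraries it did not pass (log2 0.97 ± 0.37, adjusted p = 0.928). Gk was at 63.5, 134, 83.3, 17.5, 20.5 and 15.6 CPM in PY and at 31.3, 71.6, 37.8, 15.1, 17.7 and 9.34 CPM in P, higher in PY in 6 of 6 experiments with ranges that overlapped (log2 0.74 ± 0.23, adjusted p = 0.888). Ly6a was at 413, 276, 402, 356, 274 and 127 CPM in PY and at 670.3, 354, 589, 457, 323 and 216 CPM in P. It was lower in PY in 6 of 6 experiments, again with overlap (log2 -0.50 ± 0.15, adjusted p = 0.781).

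Interferon response genes, which cells raise on sensing foreign nucleic acid, lay mostly below 0 and did not pass. Of 37 tested 0 passed and 35 had a negative log2 difference, with a median of -0.24, and Mx1, Oas2, Irf7, Rtp4 and Trim30a were lower in PY in all 6 experiments, 5 genes named with their values known (2.17% of all genes were). In each of the 5 experiments other than the fourth, 23 of 37 were lower in PY (4.48% of all genes were). The medians within experiments were -0.11, -0.16, -0.21, 0.07, -0.28 and -1.0, with experiment 6 the lowest. Mx1, an antiviral GTPase, was at 16.4, 20.9, 88.3, 20.6, 18 and 7.39 CPM in PY and at 19.7, 33.9, 120.1, 21.7, 27.3 and 21.9 CPM in P. It was lower in PY in 6 of 6 experiments and the ranges overlapped (log2 -0.58 ± 0.28, adjusted p = 0.928). Ifit1, which binds foreign RNA, was at 698 ± 446 against 852 ± 485 CPM (log2 -0.43 ± 0.20, adjusted p = 0.928). The median of the list was 0.14 on day 0 and -0.15 on day 2.

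Preadipocyte and matrix genes did not pass. Of 28 collagen and matrix genes 22 had a negative difference (median log2 -0.09), as did 14 of 17 preadipocyte and fibroblast genes (median -0.11). Col1a1, a chain of type I collagen, was at 1556 ± 457 against 1869 ± 799 CPM (log2 -0.22 ± 0.14, 95% interval of the fold 0.706 to 1.05). Fn1, fibronectin, was at 1586 ± 332 against 1800.0 ± 489 CPM and lower in PY in 6 of 6 experiments (adjusted p = 0.928).

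Of 20 tested Y-box proteins and RNA-binding partners, Ybx1 rose and the other 19 did not pass. Ybx3, another Y-box protein, was at 178, 169, 178, 215, 174 and 128 CPM in PY and at 173, 143, 168, 173, 164 and 137 CPM in P. The groups overlapped (log2 0.11 ± 0.08, 95% interval of the fold 0.965 to 1.21). Ybx2, the germ cell member, was at 1.33 ± 1.34 against 0.905 ± 0.760 CPM (log2 0.44 ± 0.40, adjusted p = 0.929). Of 26 genes reported elsewhere as targets of the protein 0 passed and 18 had a negative difference (median log2 -0.08). Snai1, a transcription factor of mesenchymal cells, was at 35.3 ± 4.41 against 41.9 ± 9.20 CPM (log2 -0.23 ± 0.14, adjusted p = 0.928).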

How the data were processed

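Total RNA depleted of ribosomal RNA was sequenced in 51 stranded libraries, per the labels' protocols. The deposited file holds raw counts per gene for 53801 Ensembl genes, with no scaling by the authors. Tools listed in the submitters' processing notes are edgeR 3.22.0, featureCounts 1.5.2 and STAR 2.5.3a, with the mm10 (GRCm38) build. The annotation release, strand setting and treatment of reads that map to several places are not given in the sources used here, so overlapping genes and gene copies are uncertain. Symbols and positions came from GENCODE M21, which held 53706 of the genes; copies of Ybx1 were found with blastn 2.17.0.

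All 51 libraries entered 1 edgeR 4.0.16 quasi-likelihood fit (limma 3.58.1, DESeq2 1.42.0, R 4.3.3) with TMM scaling, 17015 genes kept by filterByExpr, a mean for each transfection and day, and a block for each experiment within each day, which left 27 residual degrees of freedom. A gene passed when its two-sided p, adjusted by Benjamini-Hochberg over all genes kept, was under 0.05. SE values were derived from the log2 difference and its F statistic, and 95% intervals from that SE. CPM are counts over effective library sizes. The script was tested on simulated data. The precision of scarce genes is limited by depth (6969243 to 26841678 counts). Whether the experiments were separate cultures is not given in the sources used here, so p-values measure the spread between these libraries.

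Pairing comes from the experiment number in the labels. After removal of group means, PY and P libraries of the same experiment correlated across genes with r of 0.52 to 0.81 (median 0.66, 6 pairs), against a median of -0.15 over 30 other pairs, and 6 of 6 correlated best with their own.

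Named genes were Ybx1, Pparg and those that passed, the 6 of smallest p in each direction that agreed in all 6 experiments, tested neighbours of Ybx1, the 3 most abundant and the 3 most different members of each of 29 gene lists, and a short list of fat cell, mitophagy and Y-box genes. The comparison, lists and rule were chosen with earlier results of these data known. List medians within experiments used log2 ratios of CPM with 0.5 added. Alternatives were other blocks, library subsets, scalings, filters, DESeq2, limma voom and omission of single libraries or experiments.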

Additional observations from a re-analysis of the deposited data

Results flagged for a closer look

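Among 61 genes, each with 2 groups of 6 libraries, 17 of 122 groups had 1 library far from the other 5. The rule flags about 1 in 20 for independent, normally distributed values. PY and P share experiments and many of the genes were named by their values, so no excess over chance can be read from this number. Experiments 1 to 6 held 0, 3, 7, 6, 1 and 0 of these. In PY replicate 4 Nlrp2 was at 2.18 CPM, Serpinb9e at 12.2, Krt8 at 11.9 and Parm1 at 72.8 (other PY libraries 11.7 to 31.5). In P replicate 4 Serpinb9e was at 3.24 CPM and Krt8 at 1.17.

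In experiment 3, Mx1 was at 88.3 CPM (PY) and 120.1 CPM (P), and Ms4a4d at 41 and 62.1, each the highest of its group. In P replicate 3, Ifit1 was at 1798 CPM and B2m at 4475, the highest P values, and Gm11560 at 0.207, the lowest. In P replicate 2, Cyp4a14 was at 2.07 CPM, Elovl3 at 3.58 and Ces1f at 7.99, the highest P values. Pparg was highest in P replicate 5, at 370.3 CPM.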

How the results depend on the processing

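The 5 genes that passed between PY and P became 3 with no replicate block, 2 with no replicate block in the 12 libraries alone, 3 with a stricter filter on low counts, 131 with no filter (40 of them lower in PY) and 1 to 22 with libraries or experiments left out (0 to 1 lower); the cause was not tested. For the change from day 0 to day 4, 65 genes passed with no filter and 1 in DESeq2, and for the change from day 2, 31 with no filter. P against EV gave 1723 genes with a block shared by days, 916 with no replicate block and 2651 (without replicate 5) to 4062 with a replicate left out. The 2 passing members of gene lists (Ybx1 and Nlrp2) became 1 with a block shared by days, with no replicate block, in the 12 libraries with or without the block, in the 18 libraries of day 4 and with the stricter filter, 30 with no filter and 1 to 7 with libraries left out. PY lay above P in every experiment for 251 genes by raw library totals. The log2 difference turned in sign for Adipoq with no replicate block (0.080, and 0.076 in 12 libraries), Cox8b (0.11 and 0.11, and 0.039 in limma voom), Cebpa in the 12 libraries (-0.018) and Acsl1 in limma voom (-0.014). With libraries left out it ran from -0.44 to 0.31 for Adipoq, -0.13 to 0.49 for Plin1, -0.23 to 0.33 for Cebpa, -0.12 to 0.51 for Acsl1, -0.11 to 0.36 for Prdm16, -0.16 to 0.060 for Ppargc1a, -0.45 to 0.22 for Cox8b, -0.094 to 0.078 for Pink1, -0.11 to 0.20 for Bnip3, -0.32 to 0.063 for Isg15 and -0.21 to 0.00941 for Ppih. None of these 11 genes passed with all libraries. Depth limits Nlrp2, Ucp1 and the pseudogenes, and PY of experiment 2 was the shallowest library.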

Other observations

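Other gene groups had no member that passed between PY and P at day 4 in edgeR. Of 22 glycolysis and hypoxia genes tested 3 were higher in PY in all 6 experiments: Gpi1 (named after its values were seen), Vegfa and Hk2, the hexokinase that starts glycolysis in many cells, at 39.5, 52.6, 48.1, 59.9, 56.7 and 45.4 CPM in PY and 24.7, 38.1, 34, 43.4, 54.6 and 32.2 CPM in P (log2 0.43 ± 0.15, adjusted p = 0.928). Of 14 heat shock genes, Hspd1, a mitochondrial chaperone, was higher in PY in 6 of 6 experiments (412 ± 92 against 332 ± 83.2 CPM, adjusted p = 0.928), and 1 other was lower in all 6. Over all genes, 2.32% were higher in PY in all 6 experiments and 2.17% lower. The median log2 difference was 0.01 over 30 cell cycle genes, 0.01 over 36 cytosolic ribosomal proteins, -0.03 over 20 p53 targets and 0.13 over 20 NF-kB targets and cytokines, of which 17 were positive (53.3% of all genes were). For the NF-kB list the medians within experiments 1 to 6 were mixed in sign, at 0.15, -0.15, -0.10, 0.23, -0.03 and 0.09.

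Of 13 mitochondrially encoded messenger RNAs 7 were tested, with a median of log2 0.14. The medians within experiments 1 to 6 were 0.39, 0.23, -0.68, 0.12, 0.39 and 0.36, so experiment 3 went the other way. mt-Co1 was at 7169 ± 3457 against 6974 ± 3322 CPM. The other 6 messenger RNAs had almost no counts in the deposited table.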
